A study of Mus musculus with 16 samples.

Results

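The 8 genes described here encode the main leukocyte integrin subunits and 1 of their ligands: Itgam, Itgb2, Itgal, Itgax, Itga4, Itgb1, Itgb7 and Vcam1. They were taken by symbol from the 32285 genes counted in each library, all 8 were present in all 16 libraries, and the rule that lists them uses no measured value. The study asked how IACS-70654, an orally given inhibitor of the bromodomains of the acetyltransferases CBP and P300, acted on the tumor and on myelopoiesis in the bone marrow of mice bearing 2208L, a transplantable Trp53-null mammary tumor. Single-cell RNA-seq was performed on 4 tumor libraries and 12 bone marrow libraries, and each sample pooled 3 mice.

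All mice were female WT BALB/c mice, and those with a tumor had received a 2208L transplant at 7 to 8 weeks of age. The marrow was sorted as CD45+Ter119- cells and as Lin- c-Kit+ CD45+ cells, called HSPC in the labels. Each sort gave 2 libraries from tumor-free WT mice, 2 from vehicle-treated tumor-bearing mice and 2 from tumor-bearing mice given IACS-70654. The tumors gave 1 library each for vehicle, IACS-70654, anti-PD-1 and the combination. The library title does not say what the combination held. In its treatment studies the paper combined IACS-70654 with docetaxel and anti-PD-1, so the combination may differ from anti-PD-1 by more than the inhibitor. The vehicle was methylcellulose, and the series description gives a treatment of 7 days, while the study's text gives a shorter course for the marrow mice. The WT group differed from the vehicle group both in the tumor and in the gavage, so the comparison of vehicle with WT cannot tell these apart. The sources do not say whether the paired libraries of a marrow group came from separate pools of mice, so p-values measure only the spread between these libraries, which may be technical.

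After filtering, 73176 of 77636 barcodes remained, of which 31191 were CD45+Ter119- marrow cells, 28155 were Lin- c-Kit+ cells and 13830 were tumor cells and their stroma. Total counts of unique molecular identifiers (UMIs), in units of 1000000, ran from 27.82 to 54.51 per CD45+Ter119- library, from 27.43 to 68.42 per Lin- c-Kit+ library and from 15.59 to 43.59 per tumor library. The median cell of a library held 4113 to 6596.5 UMIs, 6712 to 9512 UMIs and 4724 to 6332 UMIs in the 3 sorts. No barcode was shared by libraries of the same sort in any of 36 pairs, and at most 17 were shared between libraries of different sorts. Cells were clustered without the 8 genes, without integration of the libraries, and named from marker lists that hold none of them. Neutrophils were thereby divided into early precursors (Elane, Mpo, Prtn3), cycling preNeu (Mki67, Fcnb, Cebpe), immature neutrophils (Ltf, Camp, Ngp), mature neutrophils (Cxcr2, Retnlg, Csf3r) and Il1b-high neutrophils (Il1b, Ccl6, Ptgs2). All 6 markers of its own list had a UMI in every library of each neutrophil stage, which is no check of names that came from these lists. The name of the mature class is uncertain for 2 of its 3 clusters. Clusters 1 and 2 had 2 and 1 markers of the Il1b-high list (Il1b and Ccl6, and Ccl6) and 0 of the mature list among their 10 leading genes. Cluster 1 scored 1.426 for the Il1b-high list against 1.326 for the mature list, and it was called mature because a lead of the Il1b-high list by under 0.3 did not count. Calls of the 8 genes in the mature class are therefore also given by cluster number where a cluster could be tested. In the immature class, clusters 7 and 13 led by narrow scores, 0.824 against 0.733 and 0.807 against 0.723 for the next best stage. Each had 1 marker of its own list and 1 of another stage (mature and Il1b-high) among its 10 leading genes.

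Integrins are adhesion receptors made of an alpha and a beta subunit that pair before they reach the cell surface. The product of Itgb2, CD18, pairs with CD11a (Itgal) to form LFA-1, with CD11b (Itgam) to form Mac-1 and with CD11c (Itgax), and these receptors bind ICAMs, complement fragments and fibrinogen during arrest, crawling and phagocytosis. The alpha 4 subunit (Itga4) pairs with beta 1 (Itgb1) to form VLA-4 or with beta 7 (Itgb7), and VLA-4 binds VCAM-1, the product of Vcam1, on marrow stroma, endothelium and macrophages, which helps to hold progenitors in the marrow. CD11b is also the antigen most used to gate myeloid cells by flow cytometry.

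In the RefSeq annotation of GRCm38.p6, the build that mm10 names, the alpha subunit genes Itgal (chr7:127296139-127335137), Itgam (chr7:128062640-128118491) and Itgax (chr7:128129526-128150657) lie on 1 chromosome. Only 11034 bases separate Itgam from Itgax, whereas 727502 bases separate Itgal from Itgam. The others are spread over the genome: Itga4 at chr2:79255426-79333114, Vcam1 at chr3:116110020-116129688, Itgb1 at chr8:128685654-128733579, Itgb2 at chr10:77530329-77565708 and Itgb7 at chr15:102215994-102233405. The table of RefSeq promoters held 5 of the 8 genes, and Itgal, Itgb2 and Vcam1 had no entry. The 250 bases before the start of 3 genes are shown because Itgam encodes CD11b, the myeloid gating antigen, and Itga4 and Itgb1 encode the VLA-4 subunits. In them, capitals mark GAGGAA, a letter pattern of the kind bound by the myeloid factor PU.1, and TGTGGT, a pattern of the kind bound by RUNX factors, each also searched as its reverse complement, TTCCTC or ACCACA.
Itgam, chr7:128062390-128062639, plus strand: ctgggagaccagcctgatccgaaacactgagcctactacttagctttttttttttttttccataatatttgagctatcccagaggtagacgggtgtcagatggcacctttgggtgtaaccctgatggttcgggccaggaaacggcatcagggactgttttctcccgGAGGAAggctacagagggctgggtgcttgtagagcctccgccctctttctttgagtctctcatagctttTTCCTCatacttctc
Itga4, chr2:79255176-79255425, plus strand: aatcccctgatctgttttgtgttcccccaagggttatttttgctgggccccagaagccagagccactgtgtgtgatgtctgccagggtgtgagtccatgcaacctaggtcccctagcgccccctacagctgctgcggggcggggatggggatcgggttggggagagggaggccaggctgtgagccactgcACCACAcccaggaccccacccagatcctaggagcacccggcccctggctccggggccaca
Itgb1, chr8:128685404-128685653, plus strand: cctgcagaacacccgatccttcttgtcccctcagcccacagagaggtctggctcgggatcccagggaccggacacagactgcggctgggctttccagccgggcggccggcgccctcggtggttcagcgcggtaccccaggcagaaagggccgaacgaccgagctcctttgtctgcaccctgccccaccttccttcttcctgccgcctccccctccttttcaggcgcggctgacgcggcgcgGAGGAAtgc
The Itgam window held GAGGAA at 2 places, the Itgb1 window at 1 place and the Itga4 window held TGTGGT at 1 place. The windows of Itgax and Itgb7, which are not shown, held neither pattern. Of 32851 promoter windows of this length, 23.3% held GAGGAA and 14.045% held TGTGGT on either strand, so these matches are common and are given as a description.

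To describe how the 8 genes follow neutrophil maturation, UMIs were summed over the cells of each class in each library and expressed as counts per 1000000 UMIs of that class (CPM). Values are means ± SD over the 6 CD45+Ter119- libraries, 2 from each group. Because the counts come from transcript ends, CPM is not divided by transcript length, and each gene is compared with itself across classes rather than with another gene. CPM is a share of the UMIs of a class and not a count per cell, and Il1b-high neutrophils held few UMIs per cell. Class against class was not tested.

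The Mac-1 subunits were at higher levels in later neutrophil stages than in the first. Itgam was at 140 ± 14.5 CPM in early precursors, 402 ± 18.1 CPM in cycling preNeu, 821 ± 78.4 CPM in immature neutrophils, 712 ± 71.7 CPM in mature neutrophils and 708 ± 111 CPM in Il1b-high neutrophils. The last 3 stages overlapped in their libraries, and each lay above the cycling preNeu. In monocytes Itgam was at 188 ± 20.4 CPM. Itgb2 went from 96.4 CPM in early precursors through 257 ± 31.2 CPM in cycling preNeu and 409 ± 21.0 CPM in immature neutrophils to 456 ± 11.7 CPM in mature neutrophils. Its mature libraries (442 to 473 CPM) lay wholly above its immature ones (381 to 432 CPM). By cluster over all 6 libraries the stages did not separate: Itgb2 was at 489, 392 and 466 CPM in mature clusters 0, 1 and 2, and immature cluster 7 held the most of any (517 CPM). Of the cells of clusters 2 and 7, 2902 of 3126 and 1630 of 1712 came from IACS-70654 libraries, so these cluster levels mix stage with treatment. Il1b-high neutrophils held Itgb2 at 395 ± 37.5 CPM, which overlapped the immature range.

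The other partners of Itgb2 came later. Itgal went from 29.2 CPM in early precursors and 49.7 CPM in cycling preNeu to 96.3 ± 8.65 CPM in immature, 194 ± 16.049 CPM in mature and 475 ± 107 CPM in Il1b-high neutrophils. The ranges of the last 3 stages, 83.0 to 104, 172 to 209 and 345 to 595 CPM, did not overlap, and neither did their clusters, at 80.8 to 131, 148 to 239 and 486 CPM. The level in Il1b-high neutrophils was also above that in T and NK cells (244 ± 45.8 CPM), the class in which LFA-1 is best known. Itgax, which is used as a dendritic cell marker, was nearly absent from early precursors (0.308 CPM), cycling preNeu (0.534 CPM) and immature neutrophils (1.059 CPM). It was at 5.801 ± 1.38 CPM in mature neutrophils and at 54.4 ± 21.4 CPM in Il1b-high neutrophils, a level that overlapped that of plasmacytoid dendritic cells (pDCs, 37.9 ± 26.5 CPM).

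Itga4 followed another course, high at both ends of the series and low in the middle. It was at 85.2 ± 7.06 CPM in early precursors, 35.8 ± 3.45 CPM in cycling preNeu, 33.6 ± 10.3 CPM in immature neutrophils and 99.1 ± 33.3 CPM in mature neutrophils. The mature value came from 2 clusters: Itga4 was at 30.9 CPM in cluster 0, which is in the range of the immature clusters (20.0 to 107 CPM), and at 175 and 141 CPM in clusters 1 and 2, the pair whose name is uncertain. Most cells of cluster 2 came from IACS-70654 libraries. In Il1b-high neutrophils Itga4 reached 880 ± 134 CPM (range 762 to 1116), the highest mean CPM of any CD45+Ter119- class, overlapping T and NK cells at 714 ± 126 CPM. Its partner Itgb1 went from 71.3 CPM in early precursors to 49.0, 26.6 and 19.3 CPM in cycling, immature and mature cells and stood at 97.9 ± 23.6 CPM in Il1b-high neutrophils. Itgb7, the other partner, was at 1.395, 1.443, 2.356 and 9.908 CPM in the first 4 stages and was at 15.982 ± 8.45 CPM in Il1b-high neutrophils. Itgb7 was instead highest in pDCs (158 ± 30.2 CPM) and monocytes (132 ± 47.9 CPM), whose ranges overlapped, followed by T and NK cells (113 ± 14.3 CPM) and basophils and mast cells (70.1 ± 26.5 CPM). Counts per cell order some classes otherwise. The 1743 Il1b-high cells held 3061 Itga4 and 388 Itgb1 UMIs. The 973 cells of early precursor cluster 9 held 1273 and 1148, and the 1707 cells of monocyte cluster 7 held 5541 and 2207.

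Vcam1, the ligand, had its highest levels among the named CD45+Ter119- classes in the first neutrophil stages. It was at 182 ± 61.6 CPM in early precursors (range 119 to 262) and 24.1 ± 13.1 CPM in cycling preNeu (12.011 to 42.0), and at 2.48, 1.505 and 1.694 CPM in immature, mature and Il1b-high neutrophils. The early precursor libraries lay wholly above the cycling preNeu ones. T and NK cells had 17.7 ± 38.9 CPM, which rested on 21 UMIs almost all from 1 library. A cluster of 17 cells that was too small to name, led by Igha, C1qa, C1qb, C1qc, Fcna and Vcam1 itself, held 46 Vcam1 UMIs, at 1918 to 5998 CPM in the libraries where it had any. The defining macrophage markers C1qa, C1qb, C1qc, Adgre1, Mrc1 and Ms4a7 together reached at most 5.49 CPM in early precursors.

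Shares of cells with a UMI were computed after each cell had been thinned to 1000 UMIs. Itgam was detected in 51.8 to 60.0% of immature neutrophils per library, and in 0 to 11.8% of cells of the class with the lowest share. Unthinned, the immature share was 95.6 to 98.5%. Vcam1 was detected in 10.4 to 24.4% of early precursors against 0% in the lowest class, and Itga4 in 50.1 to 59.4% of Il1b-high neutrophils against 1.57 to 4.36%. The unthinned shares were 52.7 to 77.9% and 64.8 to 79.0%. The Il1b-high neutrophils were shallow, with a library median of 1549 to 2240 UMIs per cell, and thinning left out 66 WT, 101 vehicle and 91 IACS-70654 cells in all classes.

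**Figure D1:**
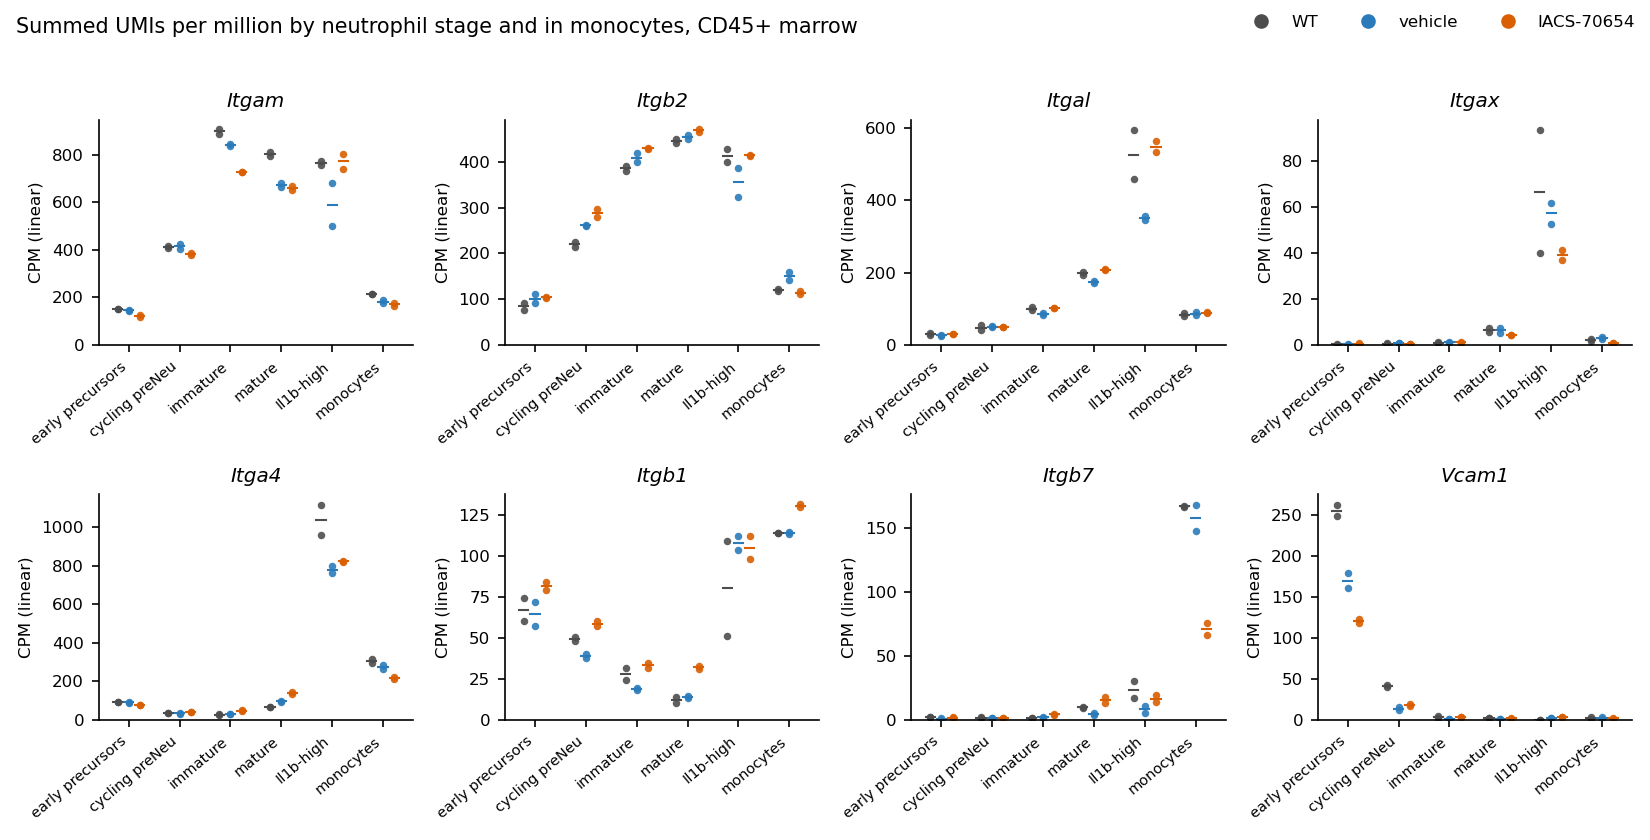
Level of each gene (CPM, linear axes from 0) in the 5 neutrophil stages and monocytes of CD45+Ter119- marrow, with 1 point per library coloured by group. Itgam and Itgb2 are highest from the immature stage on, Itgal, Itgax and Itga4 are highest in Il1b-high neutrophils, Itgb7 in monocytes and Vcam1 in early precursors.

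In the Lin- c-Kit+ sort the lineage antibodies included CD11b, the product of Itgam, so cells with surface CD11b were removed before sequencing and Itgam there is limited by the sort. Levels are again means ± SD over 6 libraries unless stated. Itgam was at 19.5 ± 4.38 CPM in hematopoietic stem cells (HSCs), its highest class, 11.8 CPM in multipotent progenitors (MPPs), 8.59 CPM in neutrophil-committed progenitors and 7.69 CPM in monocyte progenitors. Itgb2 reached at most 17.0 CPM in any class, and Itgal 31.7 CPM in monocyte progenitors and 43.3 CPM in plasma cells. Itgax was at most at 3.27 CPM, in lymphoid-primed progenitors, and had no UMI in 35 of 63 combinations of class and library. Each of these levels was below that of the same gene in mature neutrophils. The lineage antibodies also included Gr-1, and the product of Itgb2 pairs with CD11b, so the sort may limit these genes too.

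The VLA-4 genes varied widely among progenitors. Itga4 was at 576 ± 167 CPM in basophils and mast cells (range 405 to 864), 336 ± 51.6 CPM in lymphoid-primed progenitors, 238 ± 25.3 CPM in HSCs and 229 ± 4.59 CPM in erythroid cells. Itgb1 was highest in the megakaryocyte lineage (183 ± 8.95 CPM), then in erythroid cells (172 CPM), HSCs (142 CPM) and MPPs (127 CPM). Itgb7 was at 49.9 ± 11.5 CPM in basophils and mast cells and 17.2 CPM in lymphoid-primed progenitors. Vcam1 was at 24.0 ± 7.89 CPM in neutrophil-committed progenitors (12.5 to 32.0), well below its level in the CD45+Ter119- early precursors. Eosinophils had 25.1 ± 20.7 CPM on 19 UMIs in 5 libraries, and no other class exceeded 4.52 CPM.

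**Figure D2:**
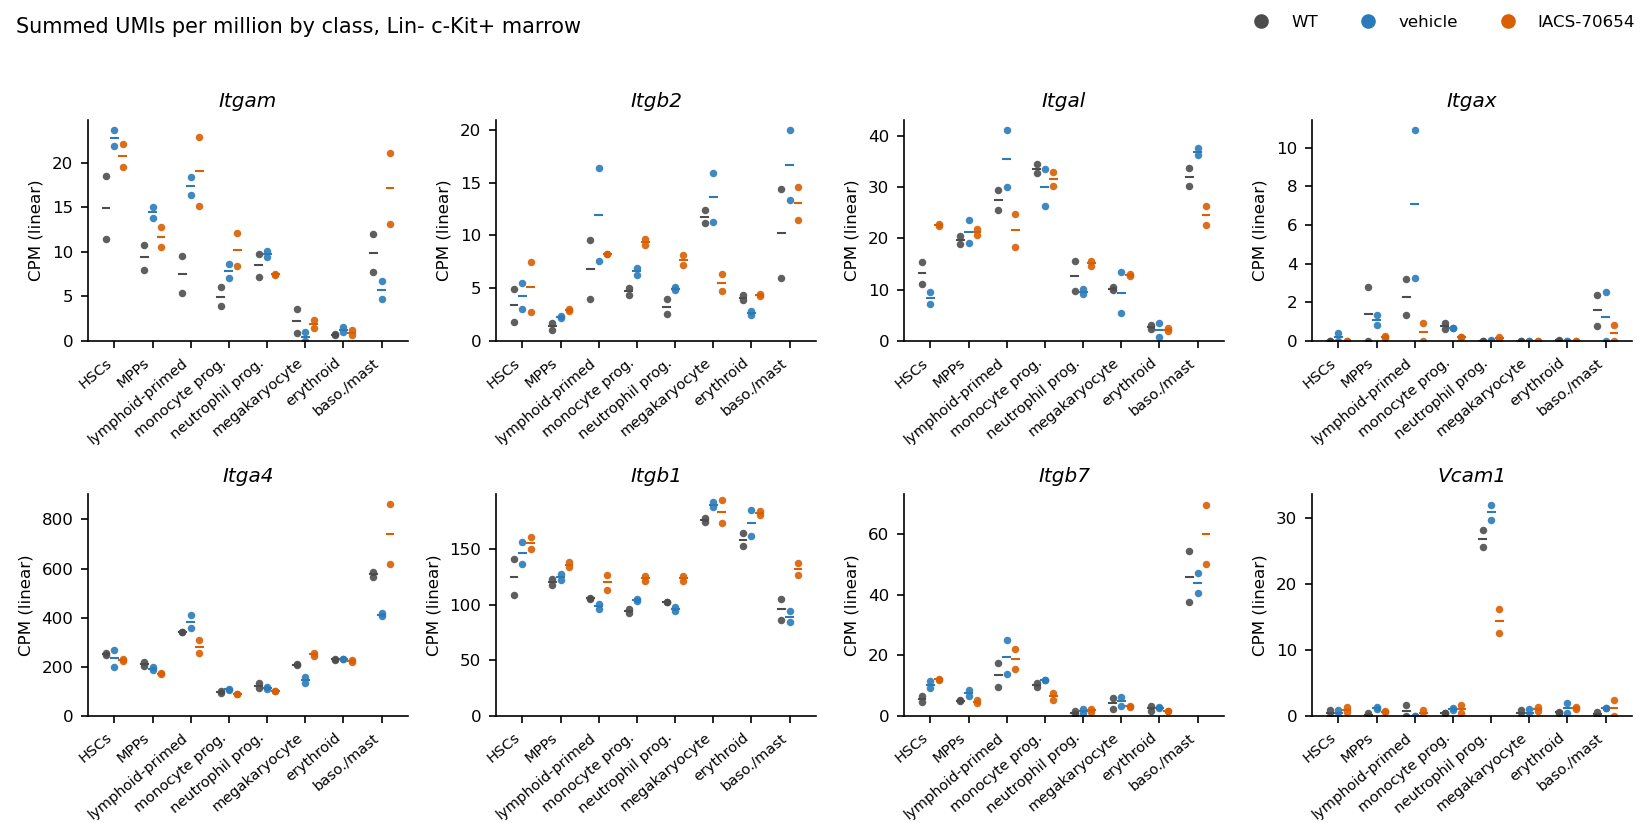
Level of each gene (CPM, linear axes from 0) in 8 classes of the Lin- c-Kit+ sort, with 1 point per library coloured by group. Itga4 and Itgb7 are highest in basophils and mast cells, Itgb1 in the megakaryocyte lineage and Vcam1 in neutrophil-committed progenitors.

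Across 22 marrow classes, the genes with the most similar profile were listed among 9854 genes that reached 20 CPM in a class. These correlations of log2 CPM are across classes that share libraries and lineage, and are a description. Itgam was most like Plaur (r = 0.97) and Rasgrp4 (r = 0.97), Itgb2 like Cd300lf (r = 0.97) and Fpr2 (r = 0.97), and Itgal like Insyn2b (r = 0.93). Itgax was most like Il10rb (r = 0.88), Itgb7 like Ahnak (r = 0.85) and Vcam1 like Tshr (r = 0.84) and Mogat2 (r = 0.84). Among the members, Itgam and Itgb2 had r = 0.91, Itgb2 and Itgal r = 0.84, Itga4 and Itgb1 r = 0.65 and Itga4 and Itgb7 r = 0.58. Itga4 and its ligand Vcam1 had r = -0.32.

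To ask what the tumor and the treatment did to these genes, summed counts of each class were compared across libraries by the quasi-likelihood test of edgeR with Benjamini-Hochberg adjustment over all genes tested in that class. A gene was called when its adjusted p was under 0.01 and its log2 change exceeded 0.5 in size. Library values in these comparisons are CPM scaled by trimmed mean of M-values (TMM) normalization, and changes are log2 differences with their standard error (SE). With total UMIs as the scale instead, the median change of all genes shifted by 0.213, 0.253 and 0.232 in cycling, immature and mature neutrophils for IACS-70654 against vehicle and by -0.14, -0.247 and -0.141 for vehicle against WT. The share of calls that were higher went from 49.4 to 83.1%, 59.2 to 87.5% and 54.6 to 82.4% in the former comparison and from 62.3 to 27.4%, 51.7 to 13.1% and 55.8 to 32.2% in the latter, so changes are given relative to the TMM scale.

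In vehicle-treated tumor-bearing mice compared with WT mice, Vcam1 was lower in the first neutrophil stages, and Itga4 was higher in the mature class. By cluster, Itga4 was higher in all 3 mature clusters and called in 1. Of 35 tests of the members in the 5 neutrophil stages, 5 were called, 1 higher and 4 lower, while over all genes 5.20% of tests were called, 2.85% higher and 2.35% lower. In early precursors, where 1.49% of all genes were called, Vcam1 was at 247.0 and 265.2 TMM-scaled CPM in WT and 168.0 and 179.5 in vehicle. Both vehicle libraries were lower than both WT libraries, a log2 change of -0.56 (SE 0.0853, edgeR adjusted p = 3.59e-05). In cycling preNeu, where 3.22% of genes were called, Vcam1 went from 38.3 and 42.0 to 16.4 and 13.1 TMM-scaled CPM, without overlap, at a log2 change of -1.46 (SE 0.126, edgeR adjusted p = 1.724e-12). Vcam1 was thus lower in both stages that hold most of it. In immature neutrophils, where 7.86% of genes were called, Vcam1 was low, at 4.757 and 1.684 TMM-scaled CPM in WT and 0.947 and 1.55 in vehicle. Its call there (log2 change -1.36, SE 0.408, edgeR adjusted p = 0.005711) rested on the first WT library, without which the change was -0.39 (adjusted p = 0.7571), and it was also lost without the first vehicle library (-1.08, adjusted p = 0.0779).

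In mature neutrophils, where 9.89% of genes were called, Itga4 was at 63.2 and 63.8 TMM-scaled CPM in WT and 102.5 and 106.1 in vehicle. Both vehicle libraries were higher, by 0.72 on the log2 scale (SE 0.0689, edgeR adjusted p = 1.138e-16). Tested within single clusters, Itga4 was called in cluster 1, from 148.5 and 123.1 to 194.8 and 206.5 TMM-scaled CPM (+0.57, SE 0.0927, edgeR adjusted p = 2.723e-06, 8.36% of genes called). It was not called in cluster 0 (+0.34, adjusted p = 0.1, 8.98% of genes) or in cluster 2 (+0.64, adjusted p = 0.3979, 0.911% of genes), which held few cells of either group. Itgb7 went the other way, from 9.81 and 9.03 to 4.26 and 5.91 TMM-scaled CPM (log2 change -0.86, SE 0.225, edgeR adjusted p = 0.001268), a call lost without the first WT library (-0.80, adjusted p = 0.03036) or the first vehicle library (-0.67, adjusted p = 0.02986). Within clusters, Itgb7 was called in cluster 1 (-1.15, edgeR adjusted p = 0.008809) and not in cluster 0 (-0.68, adjusted p = 0.1388). Itgb2 changed by less than the fold threshold but passed the p threshold in cycling preNeu (+0.39, adjusted p = 3.604e-07), immature (+0.34, adjusted p = 2.734e-19) and mature neutrophils (+0.17, adjusted p = 1.377e-05) and in monocytes (+0.33, adjusted p = 0.006628). The same was true of Itga4 (+0.39, adjusted p = 0.004508) and Itgam (+0.15, adjusted p = 1.308e-06) in immature neutrophils and of Itgam in mature neutrophils (-0.11, adjusted p = 0.0007758). On the scale of total UMIs the immature change of Itgam turned to -0.10, and Itgb2 changed by +0.09 (adjusted p = 0.02587) in immature and +0.03 (adjusted p = 0.5734) in mature neutrophils and Itga4 by +0.14 (adjusted p = 0.3436) in immature neutrophils.

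In the other CD45+Ter119- classes, 0 of 38 member tests were called by edgeR or by DESeq2 (edgeR background 0.426%), and 8 had an unadjusted p under 0.05 by edgeR. In the Lin- c-Kit+ sort 0 of 52 were called by edgeR (background 0.891%), 13 had an unadjusted p under 0.05, and DESeq2 called 1. That gene was Itga4 in the megakaryocyte lineage, at 217.5 and 211.5 TMM-scaled CPM in WT and 159.8 and 137.0 in vehicle, where the edgeR log2 change of -0.49 (adjusted p = 1.912e-07) was just inside the fold threshold. Itga4 in progenitor basophils and mast cells was lower in both vehicle libraries to a like extent (-0.48, adjusted p = 1.584e-05), but its changes within the clusters 11 and 16 of that class were -0.21 and +0.03.

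In tumor-bearing mice given IACS-70654 compared with vehicle, Vcam1 was lower in early precursors and Itgal was higher in Il1b-high neutrophils. Itgb1 and Itgb7 were called higher in the immature and mature classes, but in none of the single clusters of these classes that could be tested. In the immature clusters tested, Itgb1 changed by +0.17 to +2.14 and Itgb7 by +1.37 (1 cluster). In the mature clusters tested, Itgb1 changed by -0.50 to +0.98 and Itgb7 by +0.71 to +1.74. In the neutrophil stages 8 of 35 member tests were called, 6 higher and 2 lower. Over all genes 12.6% of tests were called in these stages, 6.58% higher and 5.98% lower, against which the members' count is to be read. The same vehicle libraries served in both this comparison and that with WT, so the values of both are not independent.

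In mature neutrophils, where 20.1% of all genes were called, Itgb1 was at 14.7 and 15.8 TMM-scaled CPM in vehicle and 28.7 and 30.7 under IACS-70654. Both treated libraries were higher, by 0.96 on the log2 scale (SE 0.118, edgeR adjusted p = 7.523e-12). Itgb7 went from 4.26 and 5.91 to 16.6 and 12.3 TMM-scaled CPM, also without overlap (log2 change +1.46, SE 0.181, edgeR adjusted p = 1.039e-11). Itga4, their alpha partner, went from 102.5 and 106.1 to 123.5 and 132.9, a rise of 0.30 that passed the p threshold only (adjusted p = 3.959e-07), while on the scale of total UMIs it was called (+0.53, adjusted p = 1.49e-14). Itgb2 was lower by less than the fold threshold in mature neutrophils (-0.18, adjusted p = 1.464e-07), immature neutrophils (-0.19, adjusted p = 5.006e-09) and monocytes (-0.40, adjusted p = 7.924e-05), and on the scale of total UMIs its neutrophil changes were +0.0489 and +0.0689. Summed CPM of the monocyte markers in these cells was 324.11 to 326.54 in vehicle and 155.76 to 162.99 under IACS-70654, and that of T and NK cell markers was 182.51 to 191.96 and 56.67 to 60.67. The part of either list in the changes of Itgb1 and Itgb7 was not tested. Itgax moved down, from 8.02 and 5.81 to 4.15 and 4.03 TMM-scaled CPM (log2 change -0.73, SE 0.230, edgeR adjusted p = 0.00541), but without the first vehicle library the change was -0.51 (adjusted p = 0.1322) and the call was also lost without either treated library (-0.75 and -0.72). Within clusters 0 and 1 Itgax was not called (-1.50, adjusted p = 0.5906, and -0.45, adjusted p = 0.9063).

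Immature neutrophils, where 15.7% of genes were called, showed the same direction for the beta subunits. Itgb1 went from 20.5 and 21.8 to 30.014 and 32.5 TMM-scaled CPM, with both treated libraries higher (log2 change +0.57, SE 0.0927, edgeR adjusted p = 1.244e-08). Itgb7 rose from 1.657 and 2.131 to 4.477 and 3.254 (+0.98, SE 0.288, edgeR adjusted p = 0.00248), a call lost without either vehicle library (+0.83, adjusted p = 0.04977, and +1.19, adjusted p = 0.01183) or the first treated library (+0.76, adjusted p = 0.08446). Vcam1 was called higher, from 0.947 and 1.55 to 3.068 and 2.473 TMM-scaled CPM (+1.09, SE 0.346, edgeR adjusted p = 0.005432), and this was lost without the first vehicle (+0.82, adjusted p = 0.1098) or first treated library (+0.95, adjusted p = 0.05993) and with stages given by marker score (+0.26, adjusted p = 0.701). Itgam was lower in both treated libraries by less than the fold threshold, at 955.5 and 934.8 TMM-scaled CPM in vehicle and 684.5 and 684.1 under IACS-70654 (log2 change -0.47, SE 0.0258, edgeR adjusted p = 1.37e-61). It was also lower, past the p threshold only, in early precursors (-0.30, adjusted p = 0.00844), cycling preNeu (-0.33, adjusted p = 7.762e-07) and mature neutrophils (-0.26, adjusted p = 6.278e-15), and higher in Il1b-high neutrophils (+0.41, adjusted p = 7.098e-05). On the scale of total UMIs the Itgam change was -0.21 in immature neutrophils (adjusted p = 6.076e-15) and -0.03 in mature neutrophils (adjusted p = 0.3442). Itga4 in immature neutrophils differed by +0.47 (edgeR adjusted p = 2.767e-08), inside the fold threshold, which it passed on the scale of total UMIs (+0.72), without high doublet scores (+0.52), with stages given by marker score (+0.5043) and without the first vehicle (+0.55) or first treated library (+0.51). Clusters 3 and 5 held most immature cells of WT (73.7 and 22.5%) and vehicle (43.7 and 49.4%), and clusters 7 and 8 held 49.126 and 42.164% of those under IACS-70654. With libraries not integrated, treatment as well as stage may set these clusters apart, which was not tested. Within the 5 immature clusters that could be tested, Itgb1 was higher in 5, by 0.17 to 2.14, and called in 0 (adjusted p = 0.1874 to 0.8287, 2 with an unadjusted p under 0.05). Itga4 ranged from -0.9976 (adjusted p = 0.03374) in cluster 3 to +1.14 in cluster 8. Itgam was lower, past the p threshold only, in clusters 3 (-0.40, edgeR adjusted p = 3.02e-06) and 5 (-0.35, adjusted p = 0.00267), and its change was -0.02 in cluster 7 and -0.27 in cluster 8.

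The size of the Itgam change differed between immature and mature neutrophils: the change in mature cells minus that in immature cells was +0.17 (SE 0.035, edgeR adjusted p = 1.641e-05), below the fold threshold, and 0 of 8 members were called in this edgeR test of the difference, in which 5.47% of genes were called, while 3 members had an unadjusted p under 0.05. The differences for Itgb1 (adjusted p = 0.07633) and Itgb7 (adjusted p = 0.4375) did not pass the p threshold. Both stages were made of different clusters in vehicle and under IACS-70654, and these differences were not tested between single clusters.

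In Il1b-high neutrophils, where 11.5% of genes were called, Itgal was at 351.4 and 364.5 TMM-scaled CPM in vehicle and 582.8 and 550.2 under IACS-70654, while the WT libraries were at 475.8 and 619.9. Both treated libraries were above both vehicle libraries (log2 change +0.66, SE 0.0978, edgeR adjusted p = 7.205e-09), and both lay between the WT libraries. The change of Itgal was +0.18 when each neutrophil was given a stage by its marker score instead of by its cluster. In early precursors, where 5.65% of genes were called, Vcam1 was at 168.0 and 179.5 TMM-scaled CPM in vehicle and 118.2 and 122.1 under IACS-70654, lower again than in vehicle (log2 change -0.53, SE 0.0792, edgeR adjusted p = 5.683e-06). Without the second vehicle library the change was -0.48, with stages given by marker score -0.40, on the scale of total UMIs -0.4961 and with no filter on low counts -0.48, all inside the fold threshold. In cycling preNeu the 2 treated libraries (18.3 and 15.6) were close to the vehicle libraries (16.4 and 13.1), and no change was called. The summed level of the early precursor markers was 31808 to 32702 CPM in the vehicle early precursors and 35005 to 35339 CPM in the treated ones, and its part in the Vcam1 difference was not tested.

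**Figure D3:**
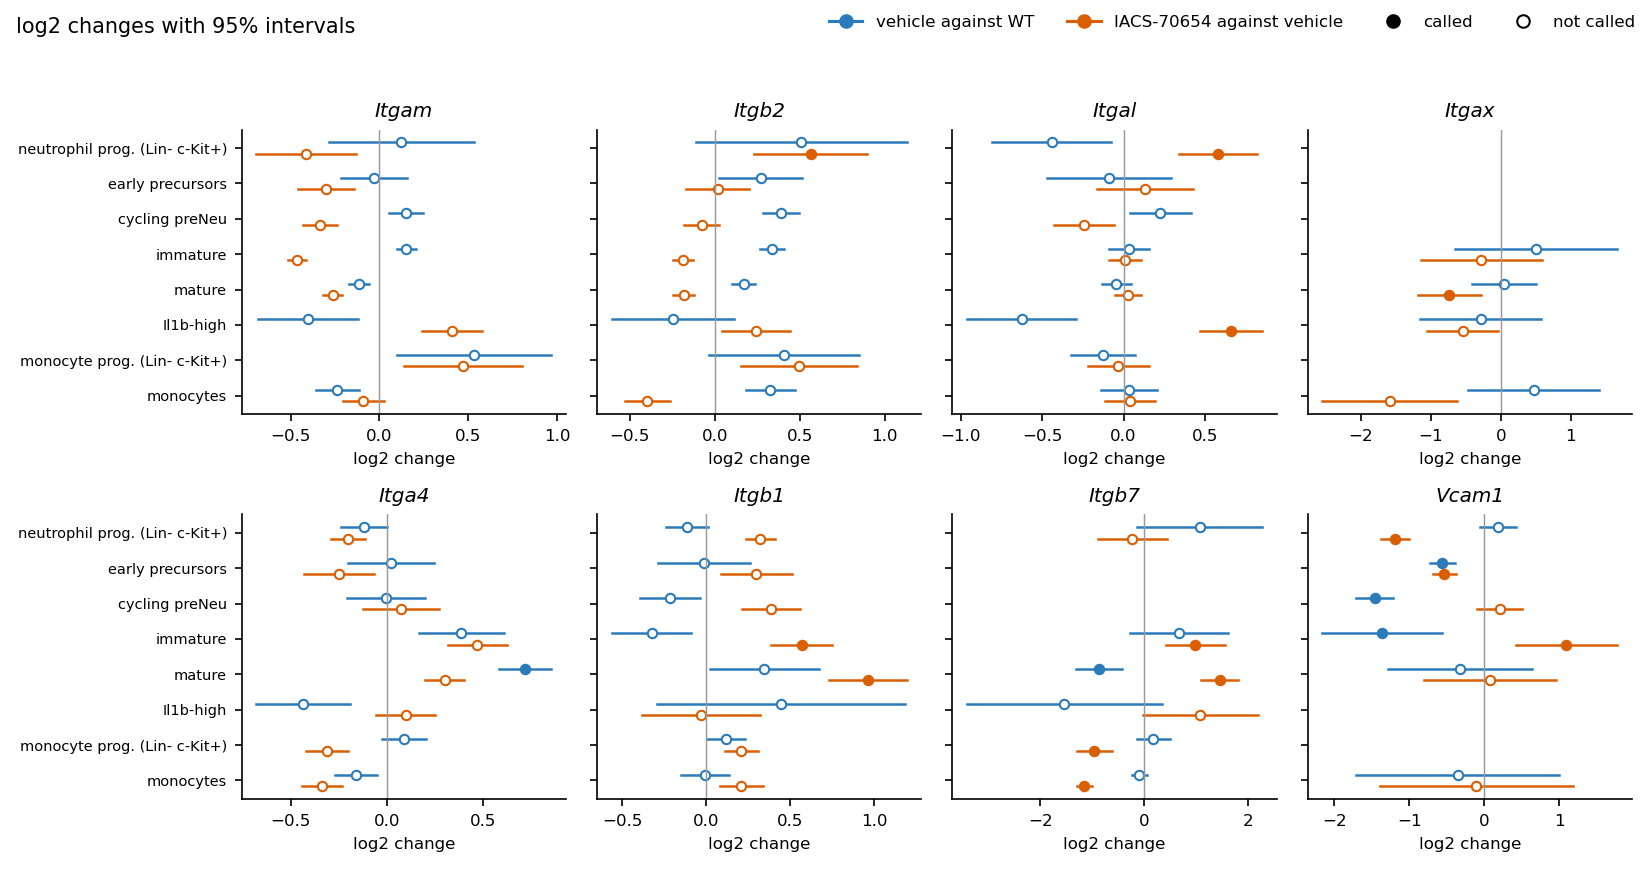
Log2 change (x axis) of each member with its 95% interval in marrow classes, for vehicle against WT (blue) and IACS-70654 against vehicle (orange), with filled points where the gene was called and blank places where it was not tested. Vcam1 lies left of 0 in early precursors and cycling preNeu of vehicle against WT, and Itgb1 and Itgb7 lie to the right in the mature class under IACS-70654. That difference was called in no single cluster of the class that could be tested, and cluster 2, with most treated cells, could not be.

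The mature class, too, was made of different clusters in the 3 groups. Cluster 2 held 92.7% of the mature neutrophils under IACS-70654 but 1.83% in WT and 3.398% in vehicle. Cluster 0 held 58.4% in WT, 46.8% in vehicle and 4.76% under IACS-70654, and cluster 1 held 39.756, 49.827 and 2.524%. The changes of the class thus compare different clusters. Because libraries were not integrated, a cluster may be set apart by treatment as well as by stage, which was not tested. Tests within clusters 0 and 1 rest on their 149 and 79 treated cells. In edgeR tests within single clusters for IACS-70654 against vehicle, Itgb1 was not called in cluster 0 (+0.98, adjusted p = 0.235, 2.79% of genes called) or cluster 1 (-0.50, adjusted p = 0.848, 1.18% of genes). Itgb7 was not called in cluster 0 (+1.74, adjusted p = 0.07947) or cluster 1 (+0.71, adjusted p = 0.8196). Neither Itgb1 nor Itgb7 passed the filter on low counts in cluster 2, which held 466 and 217 UMIs of them over all groups. The cluster with most treated cells was therefore not tested for these genes. Itga4 was not called in cluster 0 (+0.77, adjusted p = 0.1047) or cluster 1 (+0.60, adjusted p = 0.07322), and it was called lower in cluster 2 (-0.61, edgeR adjusted p = 0.006999, 9.82% of genes). Itgam was lower in cluster 0 (-0.41, edgeR adjusted p = 0.000144), inside the fold threshold, and not in clusters 1 (+0.10) and 2 (+0.19). Within cluster 0, pooled Itgb1 was at 9.80 CPM in vehicle (exact Poisson 95% interval 8.09 to 11.8) and 22.7 CPM under IACS-70654 (12.4 to 38.1). Within cluster 2 it was at 31.3 CPM (17.9 to 50.8) in the few vehicle cells and 32.8 CPM (29.8 to 35.9) in the treated ones, so inside that cluster the intervals of both groups overlapped. Itgb7 within cluster 0 was at 3.70 CPM in vehicle and 14.6 CPM under IACS-70654 (6.67 to 27.7). In cluster 2 it was at 15.4 CPM in treated cells, and 3 UMIs gave 5.86 CPM in vehicle. These intervals cover counting error only.

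Vcam1 was also examined inside single clusters. In early precursor cluster 9 it was at 215.7 and 254.2 CPM in WT, 167.3 and 200.8 in vehicle and 108.1 and 105.8 under IACS-70654. In early precursor cluster 10 the values were 335.1 and 276.4 CPM in WT, 147.8 and 150.4 in vehicle and 132.3 and 144.1 under IACS-70654. In cycling cluster 4 they were 38.9 and 40.7 CPM in WT, 13.9 and 13.2 in vehicle and 17.2 and 13.5 under IACS-70654. WT was highest in all 3 clusters, without overlap with the vehicle group in these CPM. For vehicle against WT, edgeR called Vcam1 lower in cluster 10 (-0.97, adjusted p = 6.013e-06, 0.693% of genes called) and not in cluster 9 (-0.36, adjusted p = 0.07506, 0.853% of genes), and it called Vcam1 lower in all 3 cycling clusters, 4 (-1.43, 3.27% of genes), 11 (-1.86, 1.08%) and 12 (-1.25, 1.21%). For IACS-70654 against vehicle, it was called lower in cluster 9 (-0.80, edgeR adjusted p = 1.011e-06, 4.85% of genes) and not in cluster 10 (-0.18, adjusted p = 0.3801, 5.74% of genes).

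**Figure D4:**
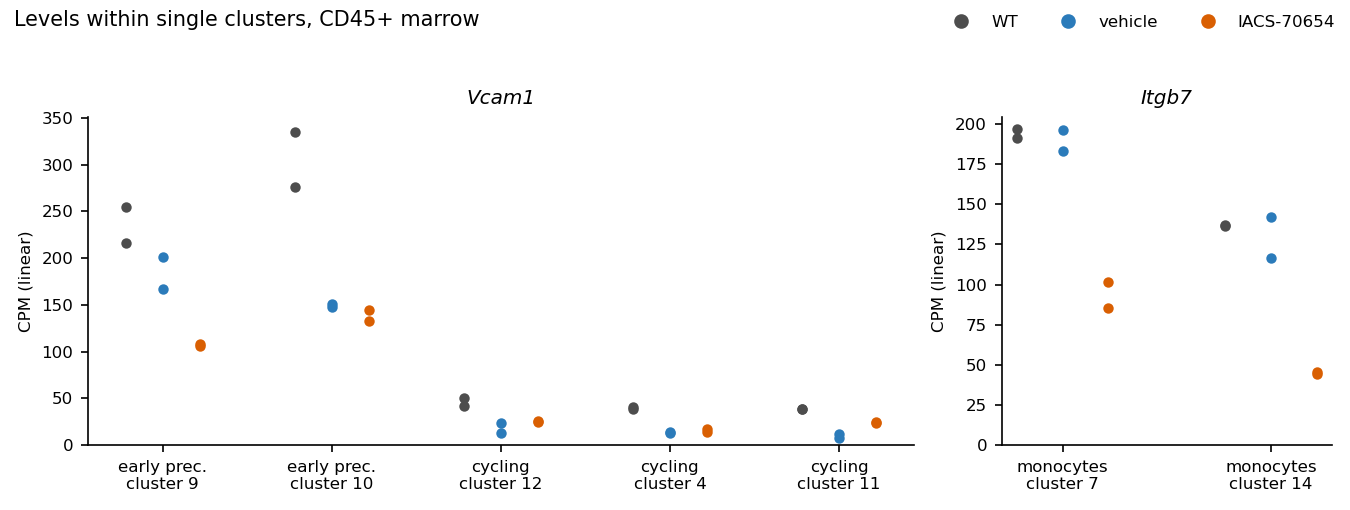
Level (CPM, linear axes from 0) of Vcam1 in single clusters of early precursors and cycling preNeu and of Itgb7 in single monocyte clusters, with 1 point per library coloured by group. WT lies highest for Vcam1 in early precursor clusters 9 and 10, and IACS-70654 lies lowest for Itgb7 in monocyte clusters 7 and 14.

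Outside the neutrophils, 4 of 38 member tests were called in CD45+Ter119- marrow under IACS-70654 compared with vehicle, 1 higher and 3 lower (over all genes 2.63%, with 0.971% higher and 1.65% lower). Itgb7 in monocytes, where 5.81% of genes were called, was at 148.4 and 166.6 TMM-scaled CPM in vehicle and 76.1 and 66.5 under IACS-70654. The treated libraries lay below every vehicle and WT library (WT 167.5 and 167.9), at a log2 change from vehicle of -1.15 (SE 0.0748, edgeR adjusted p = 2.387e-12). Itgb7 was thus called lower in monocytes and higher in the mature class, where the clusters that could be tested, 0 and 1, gave no call (+1.74 and +0.71). The difference of the class changes was 2.59 (SE 0.1877), a description of a pair chosen for its opposite calls. Inside monocyte cluster 7 Itgb7 went from 183.1 and 196.5 CPM to 101.3 and 85.3, and inside cluster 14 from 116.5 and 142.2 to 44.2 and 45.5, and it was called in both (-1.03, edgeR adjusted p = 6.803e-09, 5.14% of genes called, and -1.50, adjusted p = 9.758e-13, 3.94%). The summed monocyte markers were at 5338.98 to 5499.54 CPM in vehicle and 4089.67 to 4301.2 under IACS-70654 while neutrophil markers were at higher levels (20944.6 to 26369.27 and 28267.22 to 34044.64). The part of either list in the Itgb7 difference was not tested.

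In pDCs, where 3.61% of genes were called, Itgax was at 67.3 and 37.2 TMM-scaled CPM in vehicle and 14.1 and 5.53 under IACS-70654 (log2 change -2.45, SE 0.446, edgeR adjusted p = 0.000783). Itgal went from 92.0 and 90.7 to 50.5 and 43.3 (-0.97, SE 0.209, adjusted p = 0.003774) and Itga4 from 267.6 and 310.6 to 469.6 and 413.8 (+0.61, SE 0.128, adjusted p = 0.003347). No library overlapped between the groups for these 3 genes. The libraries held 67 to 124 pDCs each. The Itgax call was lost without the first vehicle (-1.97, adjusted p = 0.06327) or second treated library (-1.87, adjusted p = 0.03031), Itgal without any 1 of the 4 libraries (-0.86 to -1.07), and Itga4 without either vehicle library (+0.51 and +0.72) or the first treated library (+0.52). The summed pDC markers were also at 5453.2 to 5744.93 CPM in vehicle and 3312.4 to 3945.75 under IACS-70654, and their part in these differences was not tested. Itgal thus moved in opposite directions in Il1b-high neutrophils and pDCs, with a difference of 1.61 (SE 0.2577), and Vcam1 did so in immature neutrophils and early precursors (1.54, SE 0.3329). Both pairs were chosen for their opposite calls, so no test of these differences is given.

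Among Lin- c-Kit+ cells, 10 of 54 member tests were called under IACS-70654 compared with vehicle, 6 higher and 4 lower (over all genes 5.32%, with 2.19% higher and 3.12% lower). Vcam1 in neutrophil-committed progenitors, where 7.11% of genes were called, was at 30.2 and 32.2 TMM-scaled CPM in vehicle, 26.2 and 28.8 in WT and 12.2 and 15.7 under IACS-70654. Both treated libraries lay below the other 4, at a log2 change from vehicle of -1.19 (SE 0.0948, edgeR adjusted p = 2.035e-22). The WT and vehicle libraries were close here, unlike in the early precursors of the CD45+Ter119- sort. Itgal and Itgb2 were called higher in the same class, from 10.2 and 9.18 to 15.1 and 14.3 (+0.58, edgeR adjusted p = 4.665e-05) and from 4.91 and 5.10 to 6.99 and 7.97 TMM-scaled CPM (+0.57, edgeR adjusted p = 0.005432). The Itgb2 call was lost when any 1 of the 4 libraries was left out (+0.49 to +0.68), and DESeq2 did not call Itgal (+0.59, adjusted p = 0.05824). This class also differed in makeup, since cluster 2 held 46.4, 60.8 and 33.77% of it in WT, vehicle and IACS-70654 and cluster 5 held 34.83, 18.34 and 42.95%. Within clusters Vcam1 was called lower in cluster 2 (-0.59, edgeR adjusted p = 2.238e-05, 5.11% of genes called) and cluster 5 (-1.60, adjusted p = 8.753e-05, 3.39%), and it missed the p threshold in cluster 12 (-0.71, adjusted p = 0.01871, 2.75%). Itgal was called in cluster 2 (+0.89, edgeR adjusted p = 0.0002298) and not in the other clusters (+0.26 and +0.45), and Itgb2 was higher in all but called in none (+0.40 to +1.46, adjusted p = 0.01193 to 0.597). Itgb1 was higher in both treated libraries by 0.32 (adjusted p = 3.728e-10) and Itga4 was lower (log2 change -0.20, adjusted p = 0.0001001), both inside the fold threshold.

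Itga4 moved differently among the other progenitors. In the megakaryocyte lineage, where 8.21% of genes were called, it went from 159.8 and 137.0 TMM-scaled CPM in vehicle to 246.5 and 237.4 under IACS-70654 (+0.67, SE 0.0725, edgeR adjusted p = 4.478e-15), above the WT libraries as well. It was called higher within its clusters 4 (+0.73, edgeR adjusted p = 1.112e-08, 6.37% of genes called) and 14 (+0.65, adjusted p = 3.491e-08, 6.53%). In basophils and mast cells (9.06% of genes) it went from 421.8 and 432.0 to 588.5 and 841.6 (+0.70, SE 0.0819, edgeR adjusted p = 1.025e-09), and without the second treated library the change was +0.46. That class was a mix of cluster 11 (led by Prss34 and Mcpt8), with 60.17, 77.57 and 31.31% of its cells in WT, vehicle and IACS-70654, and cluster 16 (Gzmb, Cpa3 and Il1rl1), with 39.83, 22.43 and 68.69%. Itga4 was not higher within either: the change was +0.03 in cluster 11 (edgeR adjusted p = 0.9355, 2.79% of genes called) and -0.42 in cluster 16 (adjusted p = 0.0005063, 1.65%). In lymphoid-primed progenitors (1.75% of genes) it went from 422.2 and 370.5 down to 303.9 and 250.1 (-0.53, SE 0.123, edgeR adjusted p = 0.005085), a call lost without either vehicle library (-0.40 and -0.60) or the second treated library (-0.40). The difference between its changes in the megakaryocyte lineage and in lymphoid-primed progenitors was 1.22 (SE 0.1366), again for a pair chosen for its opposite calls.

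The remaining calls were in HSCs, monocyte progenitors, the megakaryocyte lineage and basophils and mast cells. Itgal in HSCs (2.84% of genes) went from 9.74 and 7.35 to 22.4 and 22.1 TMM-scaled CPM (+1.31, SE 0.276, edgeR adjusted p = 0.0004081), and was lost without the first vehicle (+1.60, adjusted p = 0.02381) or first treated library (+1.30, adjusted p = 0.02327). Itgb7 in monocyte progenitors (6.35% of genes) went from 11.7 and 11.8 to 5.25 and 7.49 (-0.95, SE 0.172, edgeR adjusted p = 5.06e-06), the same direction as in monocytes, and was lost without the first treated library (-0.65). It was called lower within both clusters of that class, 1 and 6 (-1.01 to -0.86, edgeR adjusted p = 0.003691 to 0.004121), where 5.69 and 3.14% of genes were called. Itgb2 in the megakaryocyte lineage went from 11.4 and 16.2 to 6.13 and 4.59 (-1.1992, SE 0.306, edgeR adjusted p = 0.001178), opposite to neutrophil-committed progenitors, with a difference of 1.75 (SE 0.3611) for a pair chosen in the same way. It was lost without either vehicle library (-1.54 and -1.04) or the second treated library (-1.05), and it was not called within cluster 4 (-1.05, adjusted p = 0.06829) or cluster 14 (-1.49, adjusted p = 0.0205). Itgb1 in basophils and mast cells went from 87.6 and 97.2 to 131.7 and 123.2 (+0.50, SE 0.123, edgeR adjusted p = 0.00175), and was lost without the first vehicle (+0.40) or first treated library (+0.43) and within both clusters of that class (+0.55, adjusted p = 0.02755, and +0.41, adjusted p = 0.4049).

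Compared directly with tumor-free WT mice, the IACS-70654 libraries had 7 of 35 member tests called in the neutrophil stages, 5 higher and 2 lower, where 12% of all gene tests were called, 5.77% higher and 6.19% lower. Vcam1 was lower in early precursors (118.2 and 122.1 TMM-scaled CPM against 247.0 and 265.2 in WT, log2 change -1.09, edgeR adjusted p = 2.166e-13, 6.74% of genes called) and in cycling preNeu (-1.26, edgeR adjusted p = 2.882e-10, 8.38% of genes). In mature neutrophils (22.2% of genes) Itga4 was higher by 1.02 (edgeR adjusted p = 3.703e-27), Itgb1 by 1.30 (adjusted p = 2.156e-13) and Itgb7 by 0.60 (adjusted p = 0.005746). By cluster, Itga4 was called in cluster 1 (+1.16, edgeR adjusted p = 7.446e-05, 2.98% of genes called), missed the p threshold in cluster 0 (+1.10, adjusted p = 0.01131) and changed by +0.03 in cluster 2, while Itgb1 (+1.12 and -0.22) and Itgb7 (+1.06 and -0.45) were not called in clusters 0 and 1. In immature neutrophils (14.2% of genes) Itga4 was higher by 0.86 (edgeR adjusted p = 2.476e-15), from 25.5 and 23.1 to 42.9 and 45.2 TMM-scaled CPM, and Itgb7 by 1.65 (adjusted p = 0.0002242). Within the immature clusters 3 and 5, which could be tested, Itga4 was not called and went both ways (-0.5777, edgeR adjusted p = 0.3409, and +0.99, adjusted p = 0.2931), and Itgb7 could be tested in none. The Itgb7 calls were lost without the first WT library (+1.37 in immature and +0.66 in mature neutrophils), and the mature one also without the second WT (+0.54) or first treated library (+0.39). The treated libraries stood farther from WT than the vehicle libraries did for Vcam1 in early precursors and Itga4 in the mature class.

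In the other CD45+Ter119- classes 6 of 38 member tests were called against WT, 3 higher and 3 lower (2.88% of all gene tests, 1.28% higher and 1.60% lower). Itgb7 in monocytes was lower (-1.24, edgeR adjusted p = 2.426e-13, 5.74% of genes called). In pDCs (4.36% of genes) Itgax (-2.48, adjusted p = 0.0002399) and Itgal (-0.89, adjusted p = 0.003483) were lower and Itgam (+0.84, adjusted p = 0.002774) was higher. Leaving out the second treated library ended the Itgax call (-1.90, adjusted p = 0.01853), any 1 of the 4 libraries the Itgal call (-0.78 to -0.9963), and the first WT or either treated library the Itgam call (+0.65, +0.80 and +0.89). The other 2 of the 6 calls were Itgal (+2.06) and Itgam (+1.33) in B cells (2.99% of genes), where only 1 treated library held 20 or more cells and was assumed to vary like the libraries of the other groups, so that they have no replicate check. Without B cells 4 of 33 member tests were called, 1 higher and 3 lower, beside 2.86% of all gene tests. The summed neutrophil markers in these B cells were at 29456.19 to 38206.94 CPM in WT and 74972.97 CPM in the treated library, and after removal of cells with high doublet scores the Itgam change was +0.15 (adjusted p = 0.9337) and the Itgal change +1.53 (adjusted p = 0.2576). In the Lin- c-Kit+ sort 6 of 52 were called, 3 higher and 3 lower (4.24% of all gene tests, 1.75% higher and 2.48% lower). Vcam1 (-1.02, adjusted p = 2.521e-09) and Itgb2 (+1.08, adjusted p = 0.003817) changed in neutrophil-committed progenitors (4.16% of genes), Itgam (+1.00, adjusted p = 0.0003604), Itgb2 (+0.90, adjusted p = 0.001762) and Itgb7 (-0.78, adjusted p = 0.003442) in monocyte progenitors (5.10% of genes), and Itgb2 was lower in the megakaryocyte lineage (-1.14, 7.58% of genes). Within clusters of neutrophil-committed progenitors, Vcam1 (-0.86 to -0.45) and Itgb2 (+0.53 to +7.27) were each called in 1 of 3. Itgam (+0.73 to +1.62), Itgb2 (+0.82 to +0.95) and Itgb7 (-0.92 to -0.63) were called in 0 of 2 clusters of monocyte progenitors. Itgb2 was called in 0 of 2 clusters of the megakaryocyte lineage (-1.28 to -1.02). Of the 6 calls by class, that of Vcam1 held without any 1 library. The others were lost: Itgb2 in neutrophil-committed progenitors without either WT (+1.5049 and +0.84) or the second treated library (+1.01), Itgam without the second WT (+0.76) or first treated library (+0.66), Itgb2 in monocyte progenitors without either WT (+1.04 and +0.80) or the first treated library (+0.96), Itgb7 without the same libraries (-0.86, -0.71 and -0.47), and Itgb2 in the megakaryocyte lineage without the first WT (-1.06) or second treated library (-0.9964).

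The wider adhesion list, with 57 other integrin subunits, integrin ligands, activators such as talin and kindlin, inhibitors, signalling genes and selectin system genes, gave the setting. Against WT, vehicle had 14 of 179 tests of this list called in the neutrophil stages, 7 higher and 7 lower, and IACS-70654 against vehicle had 22, 14 higher and 8 lower. Both shares can be read against the 5.20% and 12.6% of all genes given above. Selplg, the P-selectin ligand, was higher in vehicle than in WT, from 63.1 to 114 TMM-scaled CPM in immature (+0.85) and from 327 to 498 in mature neutrophils (+0.61). Itga8, an alpha subunit that pairs with Itgb1, was lower in mature neutrophils of vehicle mice (11.2 to 2.84, log2 change -1.97) and higher under IACS-70654 (2.84 to 32.8, +3.51, edgeR adjusted p = 2.018e-38), as it was in immature neutrophils (0.813 to 8.956, +3.46, edgeR adjusted p = 1.895e-30). By cluster, Selplg was called higher in vehicle than in WT in mature clusters 0 (+0.57) and 1 (+0.5016) but in 0 of 2 immature clusters (+0.30 and +0.39). Itga8 was called in mature clusters 0 and 1, lower in vehicle than in WT (-2.82 and -1.67) and higher under IACS-70654 (+4.58 and +2.92), and it was not called in immature clusters 7 and 8 (adjusted p = 0.2153 and 0.2637). In Il1b-high neutrophils 5 of 30 genes of the list were called under IACS-70654, all higher, beside 11.5% of all genes, among them the integrin activators Tln1 (+0.59), Rassf5 (+0.52) and Rasgrp2 (+0.86).

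In monocytes of treated mice, Itga1, the collagen receptor subunit that pairs with Itgb1, went from 150 to 50.3 TMM-scaled CPM (-1.60, edgeR adjusted p = 3.627e-13), and Fn1, the gene of fibronectin, from 1091 to 530 (-1.04). Of 329 tests of the list in Lin- c-Kit+ classes, 38 were called under IACS-70654 compared with vehicle, 11 higher and 27 lower, beside 5.32% of all gene tests (2.19% higher and 3.12% lower). Rasgrp2, an activator of integrins through Rap1, was lower in neutrophil-committed progenitors, MPPs, erythroid cells, basophils and mast cells, and the megakaryocyte lineage, where it went from 146 to 65.2 (-1.14, edgeR adjusted p = 2.63e-23), and Icam2, a ligand of LFA-1, was lower in neutrophil-committed progenitors, monocyte progenitors, MPPs, erythroid cells and basophils and mast cells. Itgb5 was higher in neutrophil-committed progenitors (2.78 to 8.46, +1.51, edgeR adjusted p = 8.706e-12), monocyte progenitors (+0.98) and MPPs (+1.2004).

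In the tumors there was 1 library per condition, so no comparison between conditions has a replicate check and no test was made. Levels are CPM, ratios compare single libraries, and their exact binomial 95% intervals cover counting error only. Over the 4 libraries, Itgam was highest in tumor-associated neutrophils (TANs, 276 ± 59.5 CPM), followed by monocytes (196 CPM) and macrophages (111 CPM). Itgax was at 142 CPM in dendritic cells, 130 ± 24.6 CPM in TANs and 108 ± 41.7 CPM in macrophages, and every TAN library lay above the marrow range of Il1b-high neutrophils (36.8 to 93.5 CPM), which came from other libraries and another sort. Itgb1 was highest in fibroblasts (541 ± 95.2 CPM), endothelial cells (532 CPM, 2 libraries) and tumor cells (353 ± 31.7 CPM), Itgb7 in T and NK cells (137 ± 48.7 CPM) and Vcam1 in fibroblasts (51.2 ± 37.3 CPM) and macrophages (44.1 ± 15.3 CPM).

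Of 45 ratios with at least 20 UMIs in 7 classes, 18 exceeded 0.5 on the log2 scale for IACS-70654 against vehicle and 21 for the combination against anti-PD-1, while over all genes 31.7% and 33.3% did. In macrophages (22.9% and 25.5% of genes) Itgam was at 139 CPM in vehicle and 80.6 under IACS-70654 (log2 ratio -0.79, interval -0.93 to -0.65), and at 127 under anti-PD-1 and 99.4 in the combination (-0.35). Itgax was at 136 and 79.4 (-0.77, -0.91 to -0.63) and at 152 and 66.3 (-1.19). Vcam1 was at 53.5 and 22.3 (-1.27, -1.50 to -1.02) and at 55.8 and 44.9 (-0.31). All 3 genes were lower under IACS-70654 than in vehicle and in the combination than under anti-PD-1, a pair that may differ by more than the inhibitor. With TMM scaling the ratios were -0.77 and -0.25 for Itgam, -0.75 and -1.09 for Itgax and -1.24 and -0.21 for Vcam1. The macrophages were made of different clusters: cluster 2 held 43.02, 23.55, 41.12 and 17.57% of them in vehicle, IACS-70654, anti-PD-1 and the combination, and cluster 3 held 9.52, 26.1, 9.71 and 31.15%. Of 6 clusters with at least 20 cells in both libraries, Itgax was lower in 6 in each pair, Itgam in 6 and 5, and Vcam1 in 5 and 5. Vcam1 was higher in cluster 3, at 24.1 and 35.3 CPM in the first pair and 37.5 and 62.0 CPM in the other.

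In TANs (38.0% and 36.9% of genes) the Mac-1 genes were at higher values under IACS-70654 than in vehicle and in the combination than under anti-PD-1, by ratios near the threshold. Itgam was at 219 CPM in vehicle and 320 under IACS-70654 (+0.55, 0.20 to 0.90), and at 231 under anti-PD-1 and 334 in the combination (+0.53, 0.21 to 0.85). Itgb2 was at 142 and 196 (+0.47) and at 121 and 196 (+0.69). With TMM scaling the ratios were +0.38 and +0.36 for Itgam and +0.30 and +0.52 for Itgb2, so that 1 of the 4 exceeded 0.5. Itgb1 in TANs was lower in both pairs, at 159 and 124 CPM (-0.36, -0.87 to 0.14) and at 180 and 140 CPM (-0.36, -0.81 to 0.08). With TMM scaling its ratios were -0.53 (-1.03 to -0.03) and -0.54 (-0.99 to -0.10). In monocytes (32.2% and 34.1% of genes) Itgal was at 62.4 and 24.1 (-1.37) and at 70.7 and 31.4 (-1.17), and Itgam (-0.57 and -0.33) and Itgb2 (-0.55 and -0.61) were also lower. In tumor cells (26.5% and 27.9% of genes) Itgb1 was at 320 and 372 (+0.22, 0.14 to 0.30) and at 333 and 387 (+0.22), and Itgb7 was at 1.09 and 4.24 on 7 and 53 UMIs (+1.9557, 0.81 to 3.34) and at 1.08 and 3.47 on 9 and 64 UMIs (+1.68, 0.67 to 2.87). With TMM scaling the ratios were +0.11 and +0.17 for Itgb1 and +1.85 and +1.64 for Itgb7. Cluster 8 held 53.75% of the tumor cells in vehicle and 55.8% under anti-PD-1 but 0.85 and 1.3% under IACS-70654 and in the combination, where cluster 5 held 48.3 and 45.17%. Of the 3 tumor cell clusters with at least 20 cells in both libraries, Itgb1 was higher in 2 and 3, and Itgb7 was higher in 2 and lower in 1 in each pair. Vcam1 in fibroblasts was at 35.6 and 51.3 CPM in the first pair and 103 and 15.3 CPM, on 37 and 6 UMIs, in the other.

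**Figure D5:**
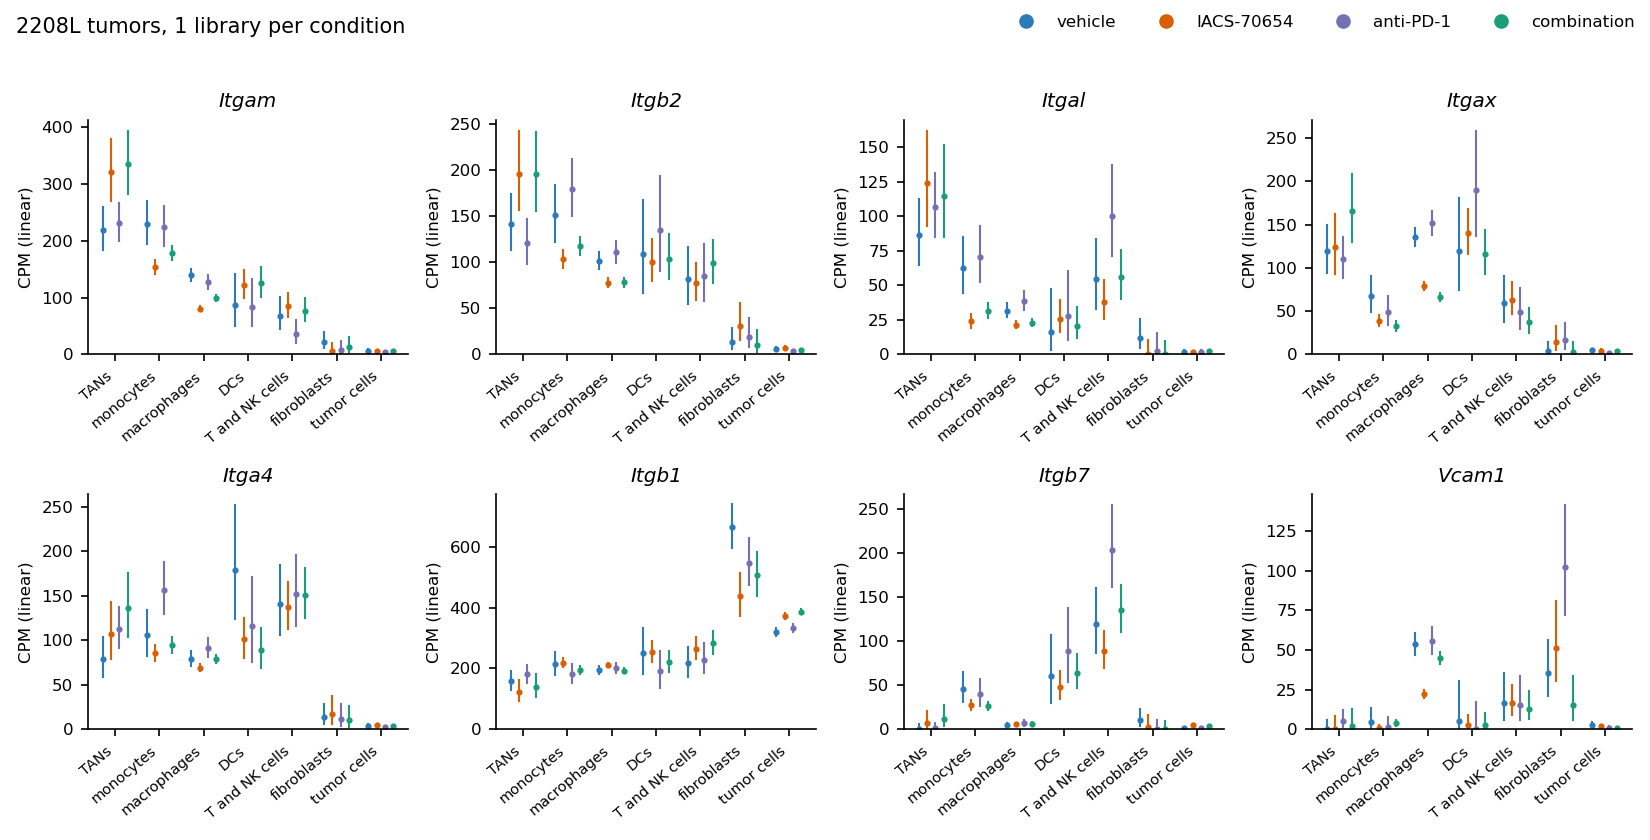
Level (CPM, linear axes from 0) of the members in tumor classes for the 4 conditions, 1 library each, with exact Poisson 95% intervals that cover counting error only. Itgam is at higher values in TANs and lower in macrophages under IACS-70654 than in vehicle and in the combination than under anti-PD-1.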

How the data were processed

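Single-cell RNA-seq was performed by the authors with 10x 3′ chemistry and CellPlex sample tags on 16 libraries. The matrices hold raw UMI counts per gene and cell, deposited by the authors after alignment, counting and sample assignment with Cell Ranger, whose version is 7.1.0 (tumor) or 7.2.0 (marrow) in the file headers, on mm10 per the labels. Filtering and integration in Seurat by the authors are not in these counts. No column of values was left unused (0).

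A cell was kept if it had over 200 genes but under 6000, with mitochondrial UMIs not above 10%. Each sort was clustered in scanpy 1.11.5 (2000 variable genes without the 8 members and the adhesion list, 30 components, 20 neighbours, Leiden resolution 1.0, and 0.8 for neutrophils). Libraries were not integrated before clustering. Clusters of all cells were named from marker lists at a score of at least 1.4 and a margin of 0.3, limits set after the data were seen. Re-clustered neutrophils took the stage of the highest list score with no minimum or margin, except that a cluster best for the Il1b-high list by under 0.3 took the next stage. Scrublet marked under 0.5% of cells in most libraries and was taken not to have worked, so doublets were kept and the 5% highest scores were left out as an alternative.

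UMIs were summed per library and class where a library held at least 20 cells. The main test was the quasi-likelihood test of edgeR 4.0.16 in R 4.3.3 on these sums, with TMM scaling, all 3 groups in 1 fit and Benjamini-Hochberg adjustment over the genes of a class, and the call thresholds (adjusted p of 0.01, absolute log2 change of 0.5) follow the study. No adjustment was made across classes. The members and lists were chosen with earlier results of these data known. All 8 members are named, with at most 6 genes of the adhesion list per comparison and class, those with the largest changes among its called genes. A few genes that these rules or the profile comparison select are not reported here. Tested on simulated counts, the edgeR step recovered 99.5% of 200 genes changed by 1 on the log2 scale among 10190 genes of mature neutrophils (1 false call), 97.0% among 9428 genes of early precursors (1 false call) and 97.0% among 11353 genes for the difference between mature and immature neutrophils (4 false calls). The changed genes were drawn from well counted genes, and every gene was simulated with the same dispersion. These shares therefore do not cover members at low counts or changes near 0.5. Alternatives were DESeq2 1.42.0, other scalings, no filter, a replicate block, only the groups compared, at least 1000 UMIs per cell, stage by score, leaving out each library and, chosen after seeing the data, edgeR fits within single clusters. With a library left out its group holds 1 library, and the spread then comes from the other groups only. Paired libraries of a group differed by more than sampling noise, with a chi-square per degree of freedom of 1.098 to 5.506 (median 1.294) over 63 pairs. Promoter sequences and gene positions came from RefSeq tables of GRCm38.p6.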

Additional observations from a re-analysis of the deposited data

Results flagged for a closer look

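In 1 case the change under IACS-70654 relative to vehicle differed between classes by a test of the difference itself: for Itgam, mature minus immature neutrophils gave 0.17 on the log2 scale (SE 0.035, edgeR with library as a block, adjusted p = 1.641e-05), below the fold threshold. Both classes were made of different clusters in vehicle and under IACS-70654. Within single clusters the Itgam change ran from -0.40 to -0.02 in immature and from -0.41 to +0.19 in mature neutrophils. In 5 further cases both treated libraries lay above both vehicle libraries in one class and below them in the other. These pairs were chosen because the gene had been called in opposite directions, so the differences and SEs of the edgeR fits are a description and no p-value is given. For Itgb7, mature neutrophils minus monocytes gave 2.59 (SE 0.1877), and the change was called within monocyte clusters 7 and 14. It was not called within the mature clusters that could be tested, 0 and 1 (+1.74 and +0.71). For Itgal, Il1b-high neutrophils minus pDCs gave 1.61 (SE 0.2577), where the pDC call was lost without any 1 of its 4 libraries and under DESeq2, and the Il1b-high change was +0.18 with stages given by marker score. For Vcam1, immature neutrophils minus early precursors gave 1.54 (SE 0.3329), where the immature level was at most 4.757 TMM-scaled CPM in any library and the immature change was +0.26 with stages given by marker score. For Itga4, the megakaryocyte lineage minus lymphoid-primed progenitors gave 1.22 (SE 0.1366), where the lymphoid-primed call was lost under DESeq2 and without either vehicle or the second treated library. For Itgb2, neutrophil-committed progenitors minus the megakaryocyte lineage gave 1.75 (SE 0.3611), at levels of 4.59 to 16.2 TMM-scaled CPM, and both calls were lost under DESeq2, the former without any 1 of 4 libraries and the latter without either vehicle or the second treated library.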

How the results depend on the processing

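Of 711 values of 57 named results under the alternatives, 596 kept their direction and side of the thresholds, 106 no longer passed, 6 newly passed and 3 reversed, and the causes were not tested. Under all of these alternatives, which do not include fits within single clusters, the calls held for Vcam1 in early precursors and cycling preNeu and Itga4 in mature neutrophils (vehicle against WT), and for Itgb1 in immature and mature neutrophils, Itgb7 in mature neutrophils and monocytes, Itga4 in the megakaryocyte lineage and Vcam1 in neutrophil-committed progenitors (IACS-70654 against vehicle). The 3 reversals came with total scaling: Itgam in immature neutrophils of vehicle against WT (-0.10), and Itgb2 in immature (0.0689) and mature neutrophils (0.0489) of IACS-70654 against vehicle. Of 37 calls in classes of several clusters, 34 could be tested within a cluster by edgeR, fits chosen after seeing the data: 16 were called in at least 1 cluster, 6 in every cluster tested and 5 went the other way in at least 1, 0 of these past the thresholds. Among these and the results not called in the class, values that turned within a cluster under IACS-70654 against vehicle were -0.9976 for Itga4 in immature cluster 3, 0.1577 and 0.1013 for Itgb2 in immature clusters 7 and 13, 0.0363 and 0.1084 for Itgb2, 0.1005 and 0.1852 for Itgam in mature clusters 1 and 2, -0.6064 for Itga4 in mature cluster 2 (called), -0.4963 for Itgb1 in mature cluster 1 and -0.4192 for Itga4 in progenitor basophil cluster 16, and against WT -0.5777 for Itga4 in immature cluster 3, -0.2153 for Itgb1 and -0.4487 for Itgb7 in mature cluster 1. DESeq2 called fewer members: in the neutrophil stages 3 of the 5 (vehicle against WT) and 5 of the 8 (IACS-70654 against vehicle), in the other CD45+Ter119- classes 2 of the 4 and 2 of the 6 (against WT), and in the Lin- c-Kit+ classes 1, 3 and 1 where edgeR called 0, 10 and 6, and it called 11 of the adhesion list in the neutrophil stages under IACS-70654 where edgeR called 22. Leaving out 1 library at a time gave 3 to 5, 6 to 7 and 5 to 7 calls in the neutrophil stages, 0 to 2, 2 to 2 and 1 to 6 in the other CD45+Ter119- classes, 0 to 1, 5 to 7 and 2 to 4 in the Lin- c-Kit+ classes, in the order vehicle against WT, IACS-70654 against vehicle and IACS-70654 against WT, and 14 to 16 of the adhesion list. For vehicle against WT in the other CD45+Ter119- classes, fitting only the groups compared gave 1 call and leaving out high doublet scores 2. The share of all genes called under DESeq2 and the other alternatives is not given, so these counts are no result about the members. Replicate numbers did not pair the samples (correlations of deviations -0.106 to 0.096 over 57 pairings), and the replicate block changed none of the 57 named results, but gave 1 call in the other CD45+Ter119- classes and 1 in the Lin- c-Kit+ classes for vehicle against WT. Total scaling also moved the share of calls that were higher under IACS-70654 against vehicle from 44.7 to 56.4% in neutrophil-committed progenitors, 42.6 to 59.2% in the megakaryocyte lineage, 45.9 to 67.3% in progenitor basophils and mast cells, 34.7 to 45.5% in HSCs and 26.4 to 40.5% in lymphoid-primed progenitors. The stage with the highest level was the same for 8 of 8 members with the mean of single-cell CPM. Levels of a few CPM for Itgax, Itgb7 and late Vcam1 rest on few UMIs.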

Other observations

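The adhesion list, counted in the same way, had 15 of 179 tests called in the neutrophil stages for IACS-70654 against WT, 8 higher and 7 lower, beside 12% of all gene tests. In the other CD45+Ter119- classes 5, 12 and 19 of 204 tests were called for vehicle against WT, IACS-70654 against vehicle and IACS-70654 against WT, beside 0.426, 2.63 and 2.88% of all gene tests. B cells, whose IACS-70654 arm is 1 library, gave part of these calls, and without them 3, 8 and 13 of 170 were called, beside 0.374, 2.83 and 2.86%. In the Lin- c-Kit+ classes the counts were 2 of 315, 38 of 329 and 37 of 315, beside 0.891, 5.32 and 4.24%. Among the beta subunits that are not members, Itgb2l, a relative of Itgb2, was lower in mature neutrophils under IACS-70654 than in vehicle (34.2 and 23.3 TMM-scaled CPM, log2 change -0.52) and in early precursors (-1.06), and Itgb5 was higher in mature neutrophils (1.48 to 5.41, log2 change 1.86) and in cycling preNeu (2.61). Within the mature clusters that could be tested neither was called: Itgb2l changed by -0.09 and -0.78 in clusters 0 and 1 and Itgb5 by 1.98 in cluster 1 (edgeR adjusted p = 0.9107, 0.8101 and 0.339).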
